A study of Triticum aestivum with 6 samples.

Results

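The short arms of wheat chromosomes 1A and 1D, 1AS and 1DS, were examined in RNA-seq counts of filling grain. Members were the gene identifiers that begin with Traes_1AS_ or Traes_1DS_. This rule used no measured value, but the arms were chosen with earlier results of these data known. There were 2762 of them among the 102602 identifiers of the table, 1516 on 1AS and 1246 on 1DS. The RNA came from inferior grains of Triticum aestivum, cultivar Xinong 538, grown in the field. Inferior grains set later in a spike and usually fill less. Sample titles gave 2 groups, CK and SPD, with 3 libraries each, and spelled out neither name. All 6 libraries carried the same treatment entry, exogenous spermidine, and the same stage entry, 8 and 16 days post anthesis. Whether SPD against CK sets treated against untreated grain is not stated by any label, and stage could not be separated.

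Bread wheat carries 3 related subgenomes, A, B and D, so most genes have a counterpart on each. The short arms of the group 1 chromosomes are known for clustered loci of gliadins and low molecular weight glutenin subunits. Both are storage proteins made in the starchy endosperm during grain filling, and in dough they form gluten together with the high molecular weight glutenins of the long arms. Storage protein genes are multigene families with repetitive, closely similar coding sequences. Neither the table nor the reference used here pairs an identifier of these arms with a gene name, and 0 of the 2762 matched it. Which identifiers belong to a gliadin or glutenin gene is therefore not known here, and the arm labels could not be checked against named genes. Reads of near-identical copies may have been divided between identifiers, so the value of a single identifier is uncertain.

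Total counts ran from 10561224 in SPD replicate 3 to 13088727 in CK replicate 3. One library, SPD replicate 3, differed from the rest in its leading identifiers and over the whole table. The 100 most abundant identifiers of the table held 19.7% of its counts, against 16.0% to 17.0% in the others. Values with and without this library are given for the main differences between arms or groups that rest on it. Values over the 6 libraries together and ranks among the arms include it. Levels are given in CPM, counts scaled by library size alone, and are not divided by gene length, since the table holds none. A rank by CPM is thus a rank by share of reads. Bulk counts do not tell a change in the number of cells of a type from a change in RNA per cell.

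The 1DS arm held more than 2 times the counts of 1AS with fewer identifiers. In the CK libraries 1DS took 2.45%, 2.51% and 2.52% of all counts, and in the SPD libraries 2.50%, 2.54% and 3.50%. The 1AS arm took 1.18%, 1.21% and 1.18% in CK and 1.19%, 1.17% and 1.23% in SPD. SPD replicate 3 was the highest library on both arms, far above the rest on 1DS and by a small margin on 1AS. Within a library, 1DS exceeded 1AS by 1.48 percentage points ± 0.391 (mean ± SD, n = 6), by 1.27 at the least and 2.27 at the most. Without SPD replicate 3 the mean difference was 1.32 points. The 1DS share was higher in 6 of 6 libraries (two-sided exact sign-flip permutation test, p = 0.0313, the smallest that 6 libraries allow, and 0.0402 adjusted over 9 comparisons of arms). The 95% Wilson interval of the 1DS share in SPD replicate 3 was 3.49% to 3.51%. For both arms in every library, this interval reached at most 0.0111 percentage points to either side, which covers counting error only.

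**Figure D1:**
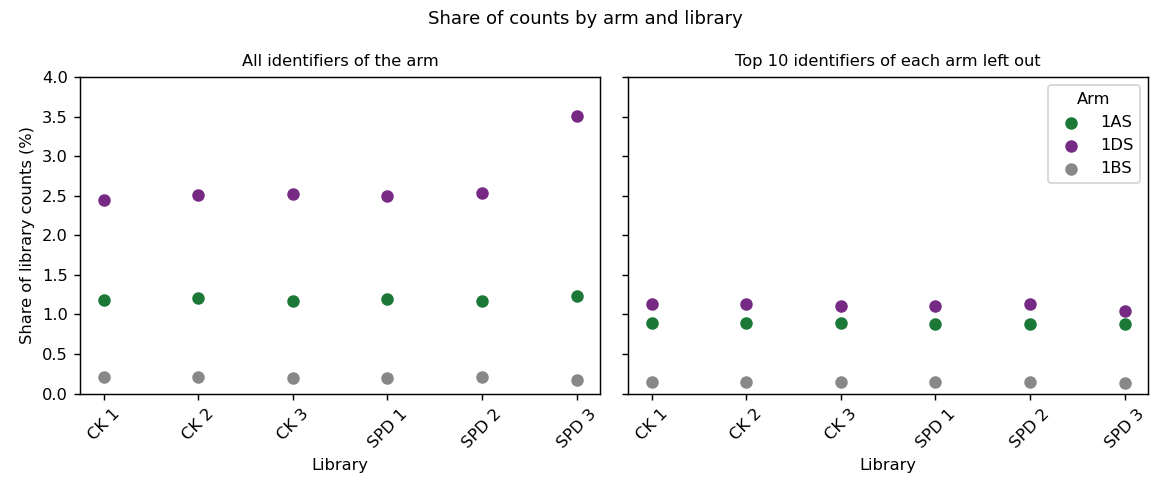
Share of all counts of a library (vertical axis, percent) taken by 1AS, 1DS and 1BS in each of the 6 libraries (horizontal axis), with all identifiers on the left and without the 10 leading identifiers of each arm on the right; each point is 1 library. On the left 1DS lies at 2.45% to 2.54% in 5 libraries and at 3.50% in SPD replicate 3, and on the right it lies at 1.05% to 1.14%, close above 1AS.

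Among the 41 arms of the table (3B counts as 1, since its identifiers name no arm), 1DS ranked 1 in counts per identifier. Over the 6 libraries together it had 1541 counts per identifier, against 992 for the next arm, 4BL. The 1AS arm had 569 and ranked 34. The third homoeologous arm, 1BS, with 1445 identifiers, had 100.3 and ranked 41. It took 0.200% ± 0.0136 of the counts (mean ± SD over 6 libraries), a difference of -0.993 percentage points from 1AS and -2.47 from 1DS, and was the lowest of the 3 arms in every library (exact sign-flip permutation test, adjusted p = 0.0402 for each difference).

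**Figure D2:**
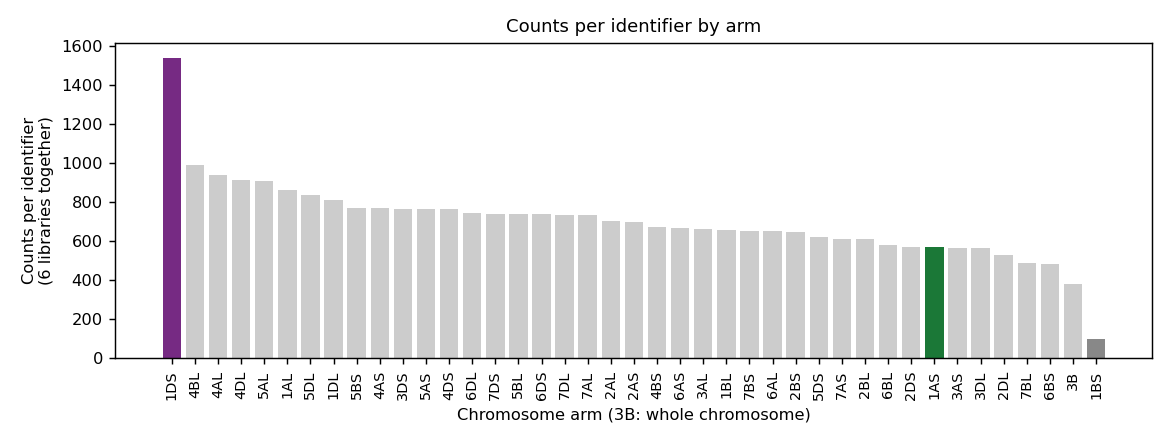
Counts per identifier, summed over the 6 libraries (vertical axis), for each of the 41 chromosome arms in descending order (horizontal axis); 1DS is purple, 1AS green and 1BS dark grey. The 1DS bar stands at 1541, the 1AS bar at 569 and the 1BS bar at 100.3.

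With detection set at 1 count, the share of identifiers detected did not separate 1DS from 1AS. At least 1 count was found for 60.4%, 59.6% and 64.8% of 1AS identifiers across CK replicates 1 to 3 and for 58.4%, 60.6% and 64.6% across SPD replicates 1 to 3. On 1DS the shares were 60.7%, 60.8% and 63.7% in CK and 58.9%, 61.5% and 63.9% in SPD. On both arms CK replicate 3 and SPD replicate 3 were the highest libraries and SPD replicate 1 the lowest. The whole table showed the same 2 highest libraries, at 63.6% and 63.0%, although SPD replicate 3 had the fewest counts. The difference of 1DS and 1AS was 0.181 percentage points ± 0.878 (mean ± SD, n = 6), with 1DS higher in 4 of 6 libraries (exact sign-flip permutation test, p = 0.625). With detection set at 1 CPM in place of 1 count, 1DS was ahead by 1.30 points (exact sign-flip permutation test, adjusted p = 0.0352). At 10 counts it was ahead by 1.24 points (exact sign-flip permutation test, adjusted p = 0.105). At 1 count, 1BS had 33.3% ± 1.75 of its identifiers detected in the same libraries. This was a difference of -28.1 points from 1AS and -28.3 from 1DS (exact sign-flip permutation test, adjusted p = 0.0402 for each).

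No count was found in any library for 435 identifiers of 1AS (28.7%) and 341 of 1DS (27.4%), near the 28.9% of the whole table. With 72437398 counts in all, 0 counts leave room for up to 0.0414 CPM. All 6 libraries detected 790 identifiers of 1AS (52.1%) and 646 of 1DS (51.8%), against 52.5% of the table. A single library detected 73 on 1AS and 68 on 1DS. SPD replicate 3 was that library for 23 and 22 of them, and CK replicate 3 for 15 and 11. In the whole table the same libraries accounted for 1449 and 1079 of 5004 such identifiers.

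The arms differed at the upper end of the level range. A mean of at least 100 CPM was reached by 29 identifiers of 1DS, 26 between 100 and 1000 CPM and 3 above. On 1AS 16 reached it, and 0 of these exceeded 1000 CPM. In the whole table, symbols included, 46 identifiers exceeded 1000 CPM, and together they held 13.1% of the counts. The 3 of 1DS held 46.5% of the arm's CPM. Means above 0 and under 1 CPM were found for 25.5% of 1AS and 26.4% of 1DS identifiers, and means from 1 to under 10 CPM for 29.8% and 26.0%.

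The 10 identifiers with the highest mean on each arm, taken over all 6 libraries, held 53.6%, 54.9% and 56.3% of the 1DS counts in CK replicates 1 to 3. In SPD replicates 1 to 3 they held 55.6%, 55.4% and 70.0%. On 1AS the leading 10 held 24.5%, 26.1% and 24.0% in CK and 26.7%, 25.4% and 28.8% in SPD. Concentration was higher on 1DS in 6 of 6 libraries, by 31.7 percentage points ± 4.84 (mean ± SD, exact sign-flip permutation test, adjusted p = 0.0402). Without SPD replicate 3 the mean difference was 29.8 points. In the ranking by mean over all libraries, 1DS stood first among the 41 arms at 58.4% and 1AS stood at rank 13 with 25.9%. The 1BS arm resembled 1AS, at 27.7% ± 1.02 against 25.9% ± 1.72 over the libraries, higher in 5 of 6 (adjusted p = 0.176). Ranked within each library, 50% of the 1DS counts came from 5 to 7 identifiers in 5 libraries and from 3 in SPD replicate 3. On 1AS 45 to 52 identifiers were needed. Without the leading 10 of each arm, 1DS still exceeded 1AS, by 0.228 percentage points (exact sign-flip permutation test, adjusted p = 0.0402), a comparison added after the data were seen.

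**Figure D3:**
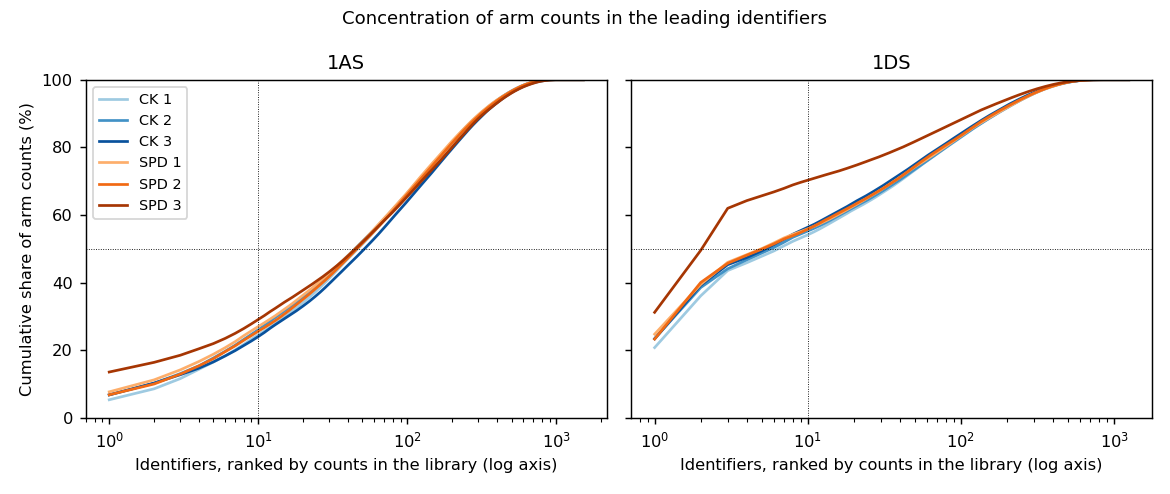
Cumulative share of the arm's counts (vertical axis, percent) against the number of identifiers, ranked by counts within each library (horizontal axis, log scale), for 1AS on the left and 1DS on the right; each line is 1 library, and dotted lines mark 50% and 10 identifiers. The 1AS lines run close together, and on 1DS the line of SPD replicate 3 lies above the other 5 and passes 50% within 3 identifiers.

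The 3 leading identifiers of 1DS by mean level were Traes_1DS_4426B6725, Traes_1DS_67B7153A8 and Traes_1DS_321E8C254. Traes_1DS_4426B6725 ranked 4 in the whole table, with 5104, 5897 and 5906 CPM across CK replicates 1 to 3 and 6204, 5934 and 10950 CPM across SPD replicates 1 to 3. The groups did not overlap, but SPD replicate 2 exceeded the highest CK library only slightly and SPD replicate 3 was about 1.85 times the median of the others. Its log2 fold change was 0.47 (SE 0.21, edgeR adjusted p = 0.997), and it was 0.10 without SPD replicate 3.

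Traes_1DS_67B7153A8, rank 7 in the table, had 3746, 3785 and 3994 CPM across CK and 3678, 4250 and 6415 CPM across SPD. The groups overlapped, and SPD replicate 3 was again the highest library. Its log2 fold change was 0.33 (SE 0.18), or 0.04 without that library. Traes_1DS_321E8C254 went the other way, with 1832, 1392 and 1540 CPM across CK and 1630, 1439 and 797 CPM across SPD. Here SPD replicate 3 was the lowest library, at 0.518 times the median of the others, and the groups overlapped. The log2 fold change of -0.30 (SE 0.21) became -0.06 without SPD replicate 3.

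Traes_1DS_66B67E9B41, at rank 4 in the arm, was the most uneven of the leading identifiers. It had 90.8, 112 and 497 CPM across CK replicates 1 to 3 and 125, 120 and 4355 CPM across SPD replicates 1 to 3. In counts this was 1135, 1236 and 6503 across CK and 1533, 1554 and 45991 across SPD. In 4 libraries it lay between 90.8 and 125 CPM, in CK replicate 3 above them, and in SPD replicate 3 at 36.4 times the median of the other 5. The groups overlapped, and the fitted log2 fold change of 2.75 (SE 1.21, edgeR adjusted p = 0.997) turned to -0.94 without SPD replicate 3 and rose to 3.96 without CK replicate 3. This identifier's mean of 1533 CPM in SPD therefore rests on 1 library.

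The remaining 6 of the leading 10 on 1DS had means between 224 and 555 CPM. Traes_1DS_EF07A3CBD had 565, 664 and 531 CPM across CK and 564, 610 and 398 CPM across SPD. Traes_1DS_E21950AD6 was among the steadiest, with 463, 498 and 457 CPM across CK and 446, 454 and 501 CPM across SPD. The groups overlapped for both, and SPD replicate 3 was lowest for the first and highest for the second. Traes_1DS_8E3528A56 averaged 397 CPM ± 19.4 across CK and 391 ± 33.5 across SPD, and Traes_1DS_6F774865F had 390.2 ± 17.7 and 373 ± 1.54 (mean ± SD, n = 3). Their 95% intervals of the log2 fold change, -0.24 to 0.21 and -0.27 to 0.16, leave out a change of 2-fold in either direction. Traes_1DS_2935DD94C had 326, 367 and 269.5 CPM across CK and 205.5, 244 and 267 CPM across SPD, so that all SPD values lay below all CK values. Its log2 fold change was -0.41 (SE 0.14, edgeR unadjusted p = 0.0156, adjusted p = 0.997) and -0.52 without SPD replicate 3. Traes_1DS_D1B39A182 had 239 CPM ± 12.2 across CK and 263, 245 and 121 CPM across SPD, where SPD replicate 3 alone was low.

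On 1AS the leading identifier was Traes_1AS_AA6B839C5, with 640, 832 and 804 CPM across CK replicates 1 to 3 and 925, 805 and 1676 CPM across SPD replicates 1 to 3. The groups overlapped, and SPD replicate 3 stood at 2.08 times the median of the others. The log2 fold change was 0.60 (SE 0.24, edgeR adjusted p = 0.997), and 0.18 without that library. It was the 1 identifier of 1AS among the 100 most abundant of the table, where 1DS had 4.

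In the other leading identifiers of 1AS, SPD replicate 3 stood at 0.660 to 1.20 times the median of the other 5 libraries. Traes_1AS_E58B0B23A had 383, 410 and 414 CPM across CK and 422, 375 and 351.5 CPM across SPD, and Traes_1AS_A053EC112 had 324, 345 and 289 CPM against 294, 343 and 235 CPM. Both overlapped between groups with SPD replicate 3 lowest, at log2 fold changes of -0.06 (SE 0.10) and -0.13 (SE 0.14). Traes_1AS_9385680A1 had 357, 278 and 184 CPM across CK and 353, 286 and 189 CPM across SPD, so the spread within each group was far larger than the difference of the means. Traes_1AS_90677C42C averaged 246 CPM ± 36.3 across CK and 229 ± 39.7 across SPD, Traes_1AS_693A87F03 228 ± 12.0 and 221 ± 33.7, Traes_1AS_3D323BAC9 215 ± 4.86 and 217 ± 35.5 and Traes_1AS_FF874F72D 192 ± 13.4 and 194 ± 22.3 (mean ± SD, n = 3). Differences of these 4 were smaller than the spread between replicates. Traes_1AS_5C2CBBC04 had 153 CPM ± 16.0 and 165 ± 6.55, with overlapping groups. Traes_1AS_A29124227 had 181.5, 178 and 144 CPM across CK and 104, 115 and 142 CPM across SPD. All its SPD values lay below all CK values, by a narrow margin between CK replicate 3 and SPD replicate 3, at a log2 fold change of -0.47 (SE 0.15, edgeR unadjusted p = 0.0104, adjusted p = 0.997) and of -0.62 without SPD replicate 3.

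**Figure D4:**
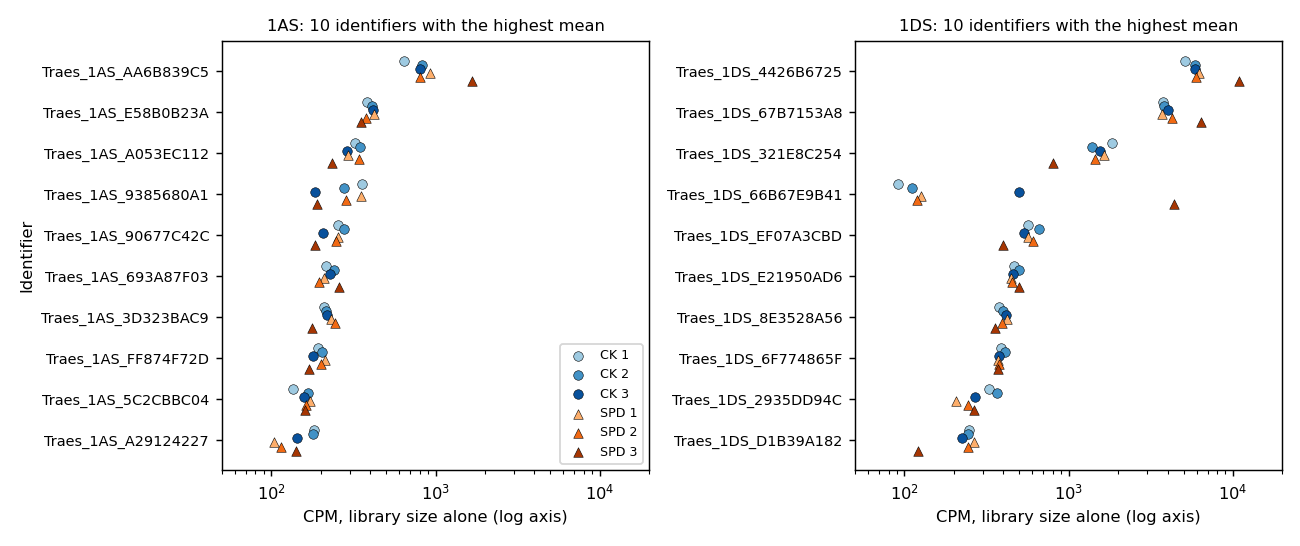
Level in CPM (horizontal axis, log scale) of the 10 identifiers with the highest mean on 1AS and on 1DS (vertical axis), with CK libraries as blue circles and SPD libraries as orange triangles. SPD replicate 3, the darkest triangle, lies apart to the right for Traes_1AS_AA6B839C5, Traes_1DS_4426B6725, Traes_1DS_67B7153A8 and Traes_1DS_66B67E9B41 and to the left for Traes_1DS_321E8C254 and Traes_1DS_D1B39A182.

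The high share of 1DS in SPD replicate 3 lay in 3 of its identifiers. Traes_1DS_4426B6725, Traes_1DS_67B7153A8 and Traes_1DS_66B67E9B41, grouped here after their values were seen, summed to 8941, 9794 and 10397 CPM across CK and to 10007, 10303 and 21720 CPM across SPD. All other 1DS identifiers together had 15553, 15300 and 14834 CPM across CK and 15000, 15106 and 13312 CPM across SPD. SPD replicate 3 was thus the highest library in the sum of the 3 and the lowest in the sum of the rest. The 3 lay 5044, 2630 and 4235 CPM above the median of the other 5 libraries, and the next identifier, Traes_1DS_B664B901C, 49.2 CPM above it. As shares of a fixed total, these values do not tell a gain of some identifiers from a loss of others.

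Among symbols of the table, the storage protein and grain texture list summed to 10180 to 10680 CPM across CK and to 9171, 9936 and 13550 CPM across SPD, also highest in SPD replicate 3. Of its 4 tested members, 0 were called. The avenin-like gene AVNLA had 6276 CPM there, against 3117 to 4096 CPM in the others. PINA and PINB, the puroindoline genes behind grain texture, had 3517 and 3750 CPM there, 1.15 and 1.03 times the median of the other 5 libraries. GLU-D1-2B, the remaining symbol of the list, had few counts. It had 5.68 CPM in SPD replicate 3, from 60 counts, against 2.53 to 4.88 CPM in the others. This was 2.22 times the median of the other 5 libraries. Starchy endosperm symbols, a list that shares those 4 genes, summed to 14008 to 15763 CPM in 5 libraries and 18052 CPM in SPD replicate 3. Without AVNLA, left out after its values were seen, the other 7 of them summed to 11776 CPM in SPD replicate 3, within their range of 10877 to 12068 CPM in the other libraries. Symbols of the green pericarp, the 6 photosynthesis genes on the list, summed to 429 to 624 CPM in 5 libraries and 877 CPM in SPD replicate 3. PER1, a peroxiredoxin of aleurone and embryo, had 105 CPM there, within its range of 97.2 to 152 CPM in the others. By group it had 150, 152 and 121 CPM across CK and 97.2, 124 and 105 CPM across SPD, which overlapped. PER1 and 3 of the 6 green pericarp genes lay below an unadjusted 0.05 between groups, where the background was 3.59%. The starchy endosperm list had 0 of 8, and 0 members of any list were called. No marker on these lists was at 0. The part of tissue composition in the values of SPD replicate 3 was not tested.

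SPD replicate 3 was also compared with the other libraries over all tested identifiers of each arm, the leading ones included. It was the highest of the 6 libraries in 153 tested identifiers of 1AS (21.3%) and 122 of 1DS (19.9%), where the background was 20.3%, and the lowest in 176 (24.5%) and 169 (27.6%), where the background was 25.8%. Among tested identifiers averaging 10 CPM or more, 7 of 242 on 1AS and 6 of 252 on 1DS lay at least 2-fold above the median of the other 5 libraries in SPD replicate 3, on log2 of CPM plus 0.5. These are 2.89% and 2.38%, where the whole table had 1.33%. Lower by as much were 8 on 1AS (3.31%) and 6 on 1DS (2.38%), where the table had 2.52%. Leading identifiers described above are among these: Traes_1AS_AA6B839C5 and Traes_1DS_66B67E9B41 on the higher side, and Traes_1DS_D1B39A182 on the lower side. In CK replicates 1 and 2, 0 identifiers of either arm lay that far from the median of the other 5 libraries in either direction. The whole table had 0.0598% to 0.103% by library and direction. CK replicate 3 had 2 higher on each arm (0.826% and 0.794%), where the table had 0.0870%. SPD replicate 1 had 3 lower on 1AS (1.24%) and 2 on 1DS (0.794%), where the table had 0.375%. SPD replicate 2 had 2 lower on 1AS (0.826%) and 3 on 1DS (1.19%), where the table had 0.212%.

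Some identifiers high in SPD replicate 3 were also high in CK replicate 3, and are named here after their values were seen. Traes_1AS_89C5D2845 had 8.32, 11.4 and 76.5 CPM across CK replicates 1 to 3 and 13.6, 11.3 and 141 CPM across SPD replicates 1 to 3. Its order of libraries resembled that of Traes_1DS_66B67E9B41, with 2 libraries high and 4 low. Traes_1DS_B664B901C had 8.64, 10.3 and 20.6 CPM across CK and 3.92, 3.93 and 57.9 CPM across SPD, and Traes_1AS_E0769FDD0 had 7.84, 10.8 and 16.1 CPM across CK and 2.45, 2.31 and 32.6 CPM across SPD. In both, SPD replicates 1 and 2 were the lowest libraries, and SPD replicate 3 the highest. CK replicate 3 was the highest of the remaining 5 libraries in 4 of the 7 high identifiers of 1AS and 3 of the 6 of 1DS. No such share over the whole table is at hand, so these counts describe those identifiers only and no trait of the arms. The lowest relative value in SPD replicate 3 belonged to Traes_1AS_6896175FE, with 127, 153 and 85.3 CPM in CK, 120 and 122 CPM in SPD replicates 1 and 2 and 18.1 CPM in SPD replicate 3.

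In share of counts, neither arm differed between SPD and CK by more than the SD of its SPD libraries. The share was 1.19% ± 0.0164 in CK and 1.20% ± 0.0303 in SPD for 1AS (two-sided exact permutation test, p = 0.7). For 1DS it was 2.49% ± 0.0392 and 2.85% ± 0.567 (p = 0.3, exact permutation test). The smallest p that 3 against 3 libraries allow is 0.1. The difference on 1DS was 0.354 percentage points with all libraries and 0.0269 without SPD replicate 3, and that on 1AS was 0.0104 and -0.0060. Without the leading 10 identifiers, an alternative added after the data were seen, 1AS took 0.892%, 0.891% and 0.893% in CK and 0.874%, 0.874% and 0.876% in SPD. The groups did not overlap, at the smallest p the test allows, 0.1 (exact permutation), with SPD lower. On 1DS this alternative gave 1.14%, 1.13% and 1.10% in CK and 1.11%, 1.13% and 1.05% in SPD, which overlapped.

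The share detected was 61.6% ± 2.77 in CK and 61.2% ± 3.15 in SPD on 1AS (exact permutation test, p = 0.8) and 61.7% ± 1.74 and 61.4% ± 2.49 on 1DS (p = 1, exact permutation test). The leading 10 held 24.9% ± 1.10 and 26.95% ± 1.72 of the 1AS counts, a difference of 2.07 points (exact permutation p = 0.2, and 1.16 points without SPD replicate 3), and 54.9% ± 1.34 and 60.3% ± 8.40 of those of 1DS (exact permutation p = 0.4). The difference on 1DS, 5.40 points, was 0.551 points without SPD replicate 3. To ask whether the arms differed in their difference between groups, the ratio of 1DS to 1AS counts was compared. It was 2.07, 2.08 and 2.15 across CK and 2.10, 2.17 and 2.85 across SPD, a log2 difference of 0.16 (exact permutation p = 0.2), or 0.02 without SPD replicate 3. Adjusted over the 7 comparisons, the smallest p was 0.7.

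No identifier of either arm was called in the fit over all genes. Of 1516 identifiers on 1AS, 718 passed the filter on low counts, and of 1246 on 1DS, 613 passed. At an adjusted p of 0.05, the quasi-likelihood test of edgeR called 0 on each arm, where 0% of the 50136 tested genes were called. The Wald test of DESeq2 and limma-voom also called 0 on both arms. DESeq2 gave no adjusted p for Traes_1DS_66B67E9B41, which it could therefore not call. Without adjustment, 40 of 1AS (5.57%) and 26 of 1DS (4.24%) lay below 0.05, where the background was 3.59%. Of these, 19 on 1AS (2.65% of those tested) and 17 on 1DS (2.77%) were higher in SPD, where 1.90% of all tested genes were. Lower in SPD were 21 on 1AS (2.92%) and 9 on 1DS (1.47%), where 1.69% of all tested genes were. The 1AS count fell to 21 (2.74%) without CK replicate 1 and 22 (2.88%) without CK replicate 2, where the background was 2.08% and 2.56%. On 1DS it was 10 (1.57%) without CK replicate 1, 41 (6.49%) without SPD replicate 2 and 49 (7.74%) without SPD replicate 3, where the background was 2.08%, 7.76% and 4.84%. Groups did not overlap in 84 tested identifiers of 1AS (11.7%) and 53 of 1DS (8.65%), where the background was 9.48%. SPD lay above CK in 38 of these on 1AS (5.29% of those tested) and 31 on 1DS (5.06%), where the background was 4.51%. It lay below CK in 46 on 1AS (6.41%) and 22 on 1DS (3.59%), where the background was 4.97%.

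The fitted log2 fold changes centred near 0, with a median of 0.01 on 1AS, -0.0021 on 1DS and 0.0048 over all tested genes. Positive values were found for 374 of the 718 on 1AS (52.1%) and 304 of the 613 on 1DS (49.6%), where the background was 50.7%. Without SPD replicate 3 the shares were 47.1% and 49.6%, where the background was 50.2%. The middle 50% of values ran from -0.21 to 0.23 on 1AS and from -0.18 to 0.26 on 1DS. The 95% interval of a single identifier reached a median of 0.71 to either side on 1AS and 0.61 on 1DS. These intervals are not adjusted for the number of genes tested, so only larger changes could be called. The fitted 2.11 of Traes_1AS_0085EE02B, for example, was not called.

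**Figure D5:**
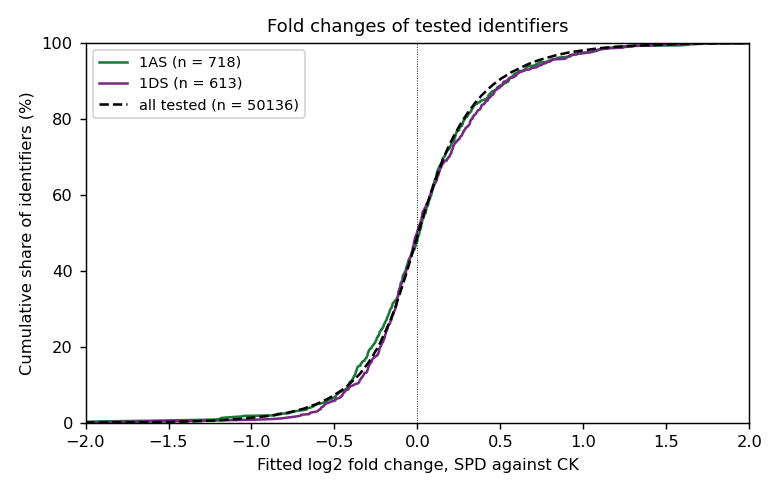
Cumulative share of identifiers (vertical axis, percent) by fitted log2 fold change of SPD against CK (horizontal axis, shown from -2 to 2) for the tested identifiers of 1AS, of 1DS and of the whole table. The 3 curves cross 50% near 0, at medians of 0.01, -0.0021 and 0.0048.

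The lowest unadjusted p-value of each arm in each direction belonged to an identifier with few counts. On the higher side these identifiers were Traes_1AS_0085EE02B and Traes_1DS_656A31FE3. Traes_1AS_0085EE02B had 6, 5 and 1 counts across CK replicates 1 to 3 and 23, 19 and 11 across SPD replicates 1 to 3, a log2 fold change of 2.11 (SE 0.72). Traes_1DS_656A31FE3 had 15, 11 and 22 counts in CK and 42, 39 and 63 in SPD, at 1.67 (SE 0.43). SPD values lay above CK values in every library for both. On the lower side, Traes_1AS_8ACA51FC9 had 66, 67 and 94 counts in CK and 32, 42 and 21 in SPD, at -1.23 (SE 0.30). Traes_1DS_ACCFFA791 had 18, 20 and 28 counts in CK and 6, 2 and 8 in SPD, at -1.93 (SE 0.65). The groups were separate in both, and the adjusted p of edgeR was 0.997 for each of the 4.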

How the data were processed

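Raw counts per gene identifier were deposited by the authors in 1 table of 6 libraries, and every column was used. HISAT2, a spliced aligner, is named without a version in the submitters' processing notes. The counting program, genome build, annotation and strand setting are not stated in the sources at hand. RNA was extracted with Trizol and libraries followed an Illumina protocol, per the labels' protocols. Groups and replicate numbers came from sample titles. Nothing says whether libraries of a group came from separate plants, so p-values reflect only how these libraries vary, possibly for technical reasons. Each pair of libraries differed beyond sampling noise, so none was treated as a copy. Chi-square per degree of freedom ran from 4.12 to 16.4 over identifiers with at least 10 counts in the pair. Pairs with SPD replicate 3 had 13.3 to 16.4, and all other pairs 4.12 to 7.02.

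Arms were read from identifiers. The counts were fitted over the whole table in R 4.3.3 with edgeR 4.0.16: filterByExpr (min.count 10, min.total.count 15), TMM and the quasi-likelihood test, two-sided, with Benjamini-Hochberg adjustment over 50136 genes at 0.05. The biological coefficient of variation was 26.5%. Standard errors and intervals of log2 fold changes come from that fit. Shares were computed in Python 3.11.15 with pandas 2.3.3 and compared with scipy 1.17.1 by exact permutation of 3 against 3 libraries, or between arms by exact sign flips over 6 libraries. Detected means at least 1 count. Alternatives were other scalings, filters and tests (DESeq2 1.42.0, limma 3.58.1), other thresholds, a replicate block and leaving out each library. The edgeR script was tested on simulated data.

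Named identifiers were the 10 with the highest mean on each arm, and the lowest unadjusted p in each direction on each arm. Others are said to be named after their values were seen. The arms, lists and tests were chosen with earlier results of these data known.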

Additional observations from a re-analysis of the deposited data

How the results depend on the processing

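Of all genes, the Wald test of DESeq2 called 3 (0 on 1AS or 1DS), and with 1 library left out edgeR called 0 to 1. Other scalings, filters, limma-voom and the block called 0. The number below an unadjusted 0.05 was 44 on 1DS with no filter, where 3.91% of all genes tested were. With 1 library left out it ran from 21 to 56 on 1AS (2.74% and 7.44%, where all genes had 2.08% and 7.76%) and from 10 to 49 on 1DS (1.57% and 7.74%, where all genes had 2.08% and 4.84%). Without the 100 most abundant genes the SPD minus CK difference in share of counts was -0.017 percentage points on 1AS and -0.036 on 1DS, and the log2 ratio of the arms -0.014. Without the leading 10 identifiers, an alternative chosen after seeing the data, these were -0.017, -0.025 and -0.0055. The detected share differed by 0.704 points on 1AS at 10 counts, and at 1 CPM by 1.01 on 1AS and 0.0803 on 1DS. At 1 CPM 1DS exceeded 1AS by 1.30 points within libraries. The cause of these shifts was not tested.

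When each library was left out in turn, the SPD minus CK share of counts on 1AS ran from -0.0060 to 0.0239 points, the detected share from -2.14 to 1.14 on 1AS and from -1.52 to 0.963 on 1DS, and the leading 10 share from 1.16 to 2.86 on 1AS and on 1DS from 0.551 to 7.89. Within libraries, where 5 libraries allow no p below 0.0625, the share of 1DS minus 1AS ran from 1.32 to 1.52 points, 1BS minus 1AS from -0.9998 to -0.980 and 1BS minus 1DS from -2.52 to -2.30. For detection, 1DS minus 1AS ran from -0.0079 to 0.427, 1BS minus 1AS from -28.5 to -27.2 and 1BS minus 1DS from -28.6 to -27.6. For the leading 10 share, 1DS minus 1AS ran from 29.8 to 32.3 and 1BS minus 1DS from -30.7 to -27.2. Log2 fold changes that changed sign ran from -0.94 to 3.96 for Traes_1DS_66B67E9B41, from -0.067 to 0.14 for Traes_1AS_3D323BAC9, from -0.18 to 0.053 for Traes_1AS_693A87F03, from -0.21 to 0.025 for Traes_1AS_90677C42C, from -0.20 to 0.25 for Traes_1AS_9385680A1 and from -0.037 to 0.096 for Traes_1AS_FF874F72D. On 1DS they also ran from -0.060 to 0.035 for Traes_1DS_8E3528A56, from -0.37 to 0.084 for Traes_1DS_D1B39A182 and from -0.077 to 0.038 for Traes_1DS_E21950AD6. The other 15 named identifiers kept their sign.

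Same-numbered samples did not deviate together (correlations of 0.0157, -0.0583 and -0.0287). With the replicate number as a block, 37 identifiers of 1AS and 22 of 1DS lay below an unadjusted 0.05, where 2.88% of all genes tested did, 0 were called, and no result changed its side of the threshold. The 7 SPD against CK measures of the arms could not change side, since sign flips over 3 pairs allow no p below 0.25. Depth limits identifiers with few counts: in 1 library, 0 counts leave room for up to 0.229 to 0.284 CPM.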
